A study of Mus musculus and Homo sapiens with 12 samples.

Results

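Intergenic regions in which exactly 2 of the 3 mESC m5C-IP libraries had a peak are described here. Peaks of the 3 libraries were merged per chromosome and recorded strand wherever they overlapped by 1 bp or more, and a merged region was kept when it held peaks of exactly 2 replicates and its midpoint lay in no annotated gene on either strand. This left 1627 members of 35162 merged regions. The study itself used only m5C peaks that were found in every biological sample. The members, with peaks of exactly 2 replicates, fall outside that rule and are not among the peaks it retained. The libraries came from wild-type mouse embryonic stem cells (mESC), grown in serum with LIF, CHIR99021 and PD0325901 and passaged on gelatin to clear feeder cells. Chromatin-associated RNA (caRNA, the RNA that stays with the chromatin fraction) was fragmented and either pulled down with an antibody to 5-methylcytosine (m5C-IP, n = 3) or sequenced without pull-down (Input, n = 3). The series also holds 3 m5C-IP and 3 Input libraries of wild-type K562, a human leukaemia cell line, which have no peak list among the files used and are not analysed here.

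m5C in RNA is made by methyltransferases such as NSUN2 and TRDMT1 and is read or oxidised by other proteins, among them TET2. Outside genes, the mouse genome is rich in retrotransposons. L1 elements are long interspersed repeats whose young subfamilies (L1MdTf, L1MdGf, L1MdA) carry a promoter built of repeated monomers at the 5′ end, and intracisternal A particles (IAP) are endogenous retroviruses with long terminal repeats. In embryonic stem cells these elements are partly transcribed, and their RNA is found on chromatin.

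The labelled cell type was checked against markers. Of 8 embryonic stem cell markers, Pou5f1, Nanog, Zfp42, Esrrb, Klf4, Tdgf1 and Dppa5a had counts in every library, and Sox2 was at 0 in all 6. Their summed level was 1615 to 1639 CPM (counts scaled to the library's total in genes) in Input and 644 to 805 CPM in IP. The 8 feeder fibroblast markers summed to 59.1 to 60.2 CPM in Input and to at least 118 CPM in IP, with Lum at 0 in all 6 libraries and Acta2 at 49.3 to 73.9 CPM in IP. Their part in the peaks was not tested, and in bulk libraries fewer cells of a type and less RNA per cell cannot be told apart. An IP library held 473398 to 592324 counts in genes, far fewer than the 29007088 to 34752646 of an Input library. Of all counted records, 43.5% to 43.9% in IP and 9.62% to 9.68% in Input fell in no gene, and at least 26.8% in IP and 6.35% to 6.66% in Input had more than 1 alignment.

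The sequences that recur most among the members are shown first. Members were linked into families when they shared at least one 31-base word, on either strand, that was not a simple tandem repeat. Each line gives the middle of the widest member of 1 of the 5 largest families, 240 bases of GRCm38 read 5′ to 3′ on the recorded strand, with each CpG dinucleotide in capitals.
Family 1, chr4:56435304-56435543 (-): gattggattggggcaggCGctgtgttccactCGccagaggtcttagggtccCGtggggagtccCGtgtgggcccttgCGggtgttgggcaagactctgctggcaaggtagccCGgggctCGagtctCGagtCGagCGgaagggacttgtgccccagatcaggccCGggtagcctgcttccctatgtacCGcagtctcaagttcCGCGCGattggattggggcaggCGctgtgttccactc
Family 2, chr6:140618451-140618690 (-): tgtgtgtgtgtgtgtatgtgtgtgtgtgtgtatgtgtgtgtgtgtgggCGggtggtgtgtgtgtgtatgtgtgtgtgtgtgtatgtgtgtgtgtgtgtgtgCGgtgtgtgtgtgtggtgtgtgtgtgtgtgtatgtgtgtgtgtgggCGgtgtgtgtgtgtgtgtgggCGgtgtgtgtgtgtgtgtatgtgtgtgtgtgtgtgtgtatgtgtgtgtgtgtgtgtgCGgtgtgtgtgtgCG
Family 3, chr13:12859822-12860061 (-): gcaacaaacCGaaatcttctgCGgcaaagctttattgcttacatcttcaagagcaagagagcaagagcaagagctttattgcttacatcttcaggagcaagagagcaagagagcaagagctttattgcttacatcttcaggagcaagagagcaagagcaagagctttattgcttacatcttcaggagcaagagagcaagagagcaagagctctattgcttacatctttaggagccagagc
Family 4, chr3:150163157-150163396 (+): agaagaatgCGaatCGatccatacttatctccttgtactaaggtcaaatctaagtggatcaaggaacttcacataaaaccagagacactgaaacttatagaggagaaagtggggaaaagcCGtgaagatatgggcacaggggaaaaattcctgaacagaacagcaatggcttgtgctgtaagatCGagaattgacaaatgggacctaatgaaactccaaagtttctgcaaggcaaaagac
Family 5, chr3:81711815-81712054 (+): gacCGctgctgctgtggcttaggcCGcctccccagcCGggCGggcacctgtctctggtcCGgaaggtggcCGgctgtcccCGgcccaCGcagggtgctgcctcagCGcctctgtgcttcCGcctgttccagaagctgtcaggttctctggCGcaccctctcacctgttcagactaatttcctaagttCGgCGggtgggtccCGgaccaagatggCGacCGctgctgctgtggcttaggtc
The 240 bases of family 1 held 16 CpG and those of family 5 also held 16, against 6 for family 2, 2 for family 3 and 4 for family 4. The family 1 sequence came from chr4:56434868-56435980, 1113 bp wide and 46.8 kb from the nearest gene, Gm12518, and its 31-base words had a median of 2326 copies in the genome. The family 2 sequence, from chr6:140618195-140618947, is mostly a run of alternating G and T broken by CpG, and that member also overlaps a B2_Mm2 amplicon, of a short interspersed repeat. The family 3 sequence, from chr13:12859727-12860156, repeats a short unit several times. The family 4 sequence, from chr3:150163128-150163425, had a median of 10494 copies, the highest among these 5.

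In all, 93 families held 1269 of the 1627 members, and the 5 largest held 800, or 49.2%. To name the repeats, the primer pairs that the study designed for repeat amplicons were located in GRCm38 within 5 kb of every merged region, with at most 2 mismatches in each primer. At each T of primers made for bisulfite-treated RNA, a C was also taken as a match. An amplicon was said to overlap a member when they shared any base. The nearest amplicon was sought within 5 kb and leaves out B1, B2 and other short interspersed repeats. Family 1 had 301 members on 21 chromosomes, with a mean GC content of 62.0%, 5.32 CpG per 100 bases and 99.7% repeat-masked bases. The nearest amplicon was L1 for 299 of its members, although no amplicon overlapped one. In family 5, with 84 members, an L1MdTf amplicon overlapped 75 of them, and the family had 60.2% GC and 4.84 CpG per 100 bases. Families 1 and 5 were thus the CpG-rich sequence close to L1, and in family 5 most members overlapped an L1MdTf amplicon.

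Family 4 (101 members) and family 7 (27 members) were also close to L1, as the nearest amplicon of 85 and of 27 members, but were poor in CpG, at 1.02 and 0.469 per 100 bases, and at 41.8% and 41.3% GC. All 101 members of family 4 and all 27 of family 7 had the same orientation relative to their shared words, whereas in family 1 the more common orientation held 195 of 301 members and in family 5 it held 48 of 84. Family 3 (141 members) was the nearest to IAP, with an IAP amplicon nearest to 105 members, and 6 members overlapped an IAPEz-int amplicon. Its GC content was 51.4%, its CpG density 5.17 per 100 bases, and its words had a median of 137 copies, against 2233.5 in family 1 and 10598 in family 4. In family 6 (45 members), 6 overlapped an RLTR10 amplicon, and the family had 4.22 CpG per 100 bases. RLTR10 is a long terminal repeat of an endogenous retrovirus.

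Family 2 (173 members) was the richest of the 10 largest in simple repeats. Bases in tandem repeats of 1 to 6 bases made up 23.6% of it, against 8.58% in family 10 and 0.222% or less in families 1 and 3 to 9, and its words had a median of 13 copies. It had 44.6% GC and 1.03 CpG per 100 bases. Its members are joined by chains of shared words, so that not every pair is alike. Family 8 (25 members) lay wholly on 1 unplaced scaffold, at 35.8% GC. Family 9 (22 members) had the highest CpG density of the 10 largest, 7.34 per 100 bases, at 61.7% GC.

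**Figure D1:**
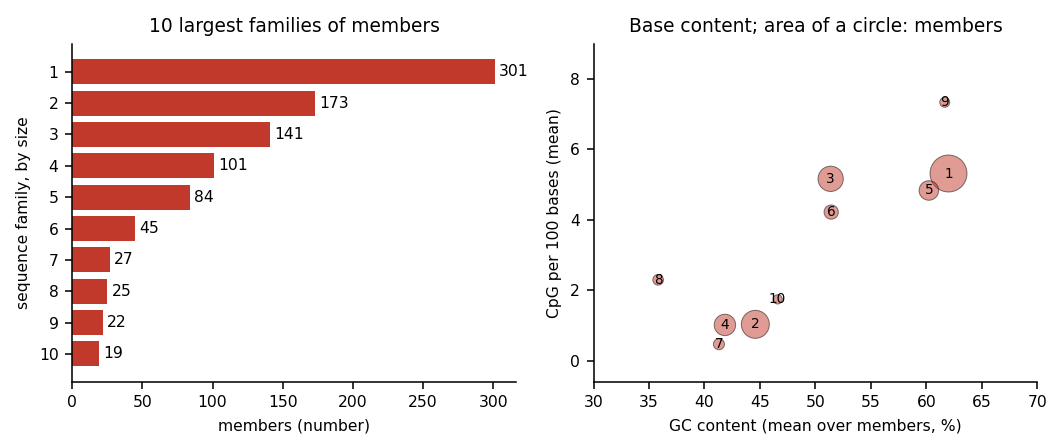
Left, members (number) in each of the 10 largest sequence families, numbered by size. Right, mean GC content (%) against mean CpG per 100 bases of each family, with circle area proportional to members. Families 1, 5 and 9 sit at 60.2% to 62.0% GC, family 8 at 35.8%, and families 2, 4 and 7 at 1.03 CpG per 100 bases or less.

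The members were drawn from a small overlap between the libraries. The lists held 11146, 15404 and 15797 peaks in replicates 1, 2 and 3, and members took 7.69%, 7.76% and 7.74% of them. Most merged regions, 30355, held peaks of 1 replicate, 3096 held peaks of exactly 2 and 1711 held peaks of 3. The share that was intergenic was 44.7%, 52.6% and 63.9% in that order. Of the 1627 members, 776 (47.7%) had peaks of replicates 2 and 3, 437 (26.9%) of replicates 1 and 3, and 414 (25.4%) of replicates 1 and 2. Replicate 1, the one with the fewest peaks, was thus the one most often without a peak. Members without replicate 1 had 80.8% masked bases and a median of 187 copies of their words, against 76.4% and 84 without replicate 2 and 76.9% and 65.8 without replicate 3. Since the lists carry positions and strand without a score, a member cannot be ranked by height here.

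**Figure D2:**
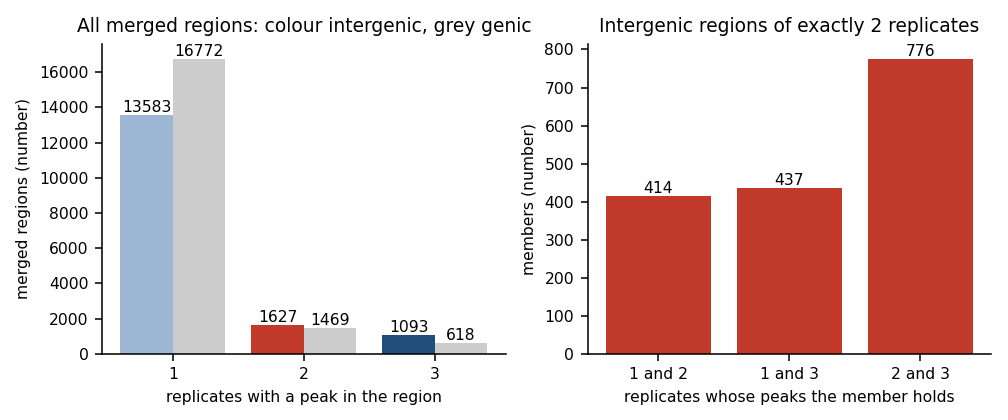
Left, merged regions (number) by the replicates with a peak in them, intergenic in colour and genic in grey. Right, members (number) by the replicates whose peaks they hold. The 1627 members compare with 13583 intergenic regions of 1 replicate and 1093 of 3, and 776 of them hold peaks of replicates 2 and 3.

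Within a member, both peaks usually lay on the same bases. Exactly 2 peaks made up 1611 members, and 16 held more. The overlap had a median of 100% of the shorter peak with a lower quartile of 96.2%, the peaks had identical ends in 425 members (26.1%), and the overlap was complete in 892. Peak centres were a median of 3 bp apart. The absent replicate had a peak within 1 kb on the same strand in 206 members (12.7%), and a peak overlapping on the other strand in 139 (8.54%). Its nearest peak on the same strand was a median of 85.4 kb away. The share with such a peak within 1 kb was 12.1% where replicate 1 was absent, 11.2% where replicate 2 was and 15.2% where replicate 3 was.

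Member width was bounded by the calling, in which fragments were extended to 150 bp. The narrowest member was 150 bp, and 409 members had that width. The median was 156 bp, the upper quartile 208 bp and the maximum 1163 bp, with 22 members over 500 bp. Median width was 155, 157 and 156 bp over the members with a peak of replicate 1, 2 and 3. The median peak in members was 150 bp in all 3 libraries, as it was in intergenic regions of 1 replicate and in genic regions of exactly 2, whereas in intergenic regions of 3 replicates it was 156, 162 and 161 bp in replicates 1, 2 and 3. Width is not independent of the rule, since merging sets it, and is given as a description.

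The members stood between intergenic regions of 1 and of 3 replicates in GC, CpG and repeat-masked content. Differences were taken between classes within each IP library and tested by an exact two-sided paired permutation test (sign flips over the 3 libraries), which cannot give a p below 0.25. Of 41 comparisons, 21 of them on 7 measures added after the data had been seen, 38 reached that smallest p = 0.25 (0.27 after Benjamini-Hochberg adjustment over the 41, exact permutation test), with all 3 libraries on the same side. No comparison could therefore pass a threshold of 0.05, and each is given by its size, its SD over libraries and its direction in the 3 libraries. Libraries share regions by the rule, so they are not independent. In the intergenic class of 3 replicates, all 3 libraries hold peaks of the same 1093 regions. Each member is likewise held by all libraries but 1. The SD over libraries and the shared direction therefore largely describe the same regions again, and do not measure the spread of independent replicates. Although the study calls its replicates biological, the labels do not say whether they came from separate cultures.

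Repeat-masked bases made up 76.7%, 79.6% and 79.3% of a member peak in replicates 1, 2 and 3 (mean 78.6% ± 1.58, SD, n = 3). They made up 59.2% ± 1.27 of peaks in intergenic regions of 1 replicate, 85.7% ± 0.288 in those of 3 and 41.0% ± 1.41 in genic regions of exactly 2. The 3 member values lay above all 3 values of the first class, below those of the second and above those of the third. Over the 1624 members with sequence, 992 were masked throughout and 135 not at all, and 43.1% of the whole intergenic genome is masked.

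The share of 31-base words that also occur elsewhere in the genome was 78.3%, 81.2% and 80.1% in member peaks (79.9% ± 1.43), against 51.5% ± 0.639 in intergenic regions of 1 replicate and 91.3% ± 0.0775 in those of 3. It was 47.3% ± 1.65 in genic regions of exactly 2. Every word of 842 members occurred elsewhere, and no word of 150 did. The median copy number was 1 in 270 members, over 1 and up to 10 in 193, over 10 and up to 100 in 335, over 100 and up to 1000 in 262 and over 1000 in 564. A read from these sequences can have several equally good places, and how the aligner's choice was handled is not given in the sources used here, so the position of a repeated member is less certain than that of a single-copy one.

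GC content was 52.6%, 52.1% and 52.3% in member peaks (52.4% ± 0.243). It was lower in intergenic regions of 1 replicate (49.5% ± 0.325) and higher in those of 3 (53.3% ± 0.0776) and in genic regions of exactly 2 (54.7% ± 0.185), in 3 of 3 libraries each. The difference from regions of 3 replicates was -0.922 percentage points, and -1.94 on chromosomes 1 to 19, X and Y. The whole intergenic genome has 40.7% GC. CpG density was 3.50, 3.40 and 3.35 per 100 bases (3.42 ± 0.0748), against 2.23 ± 0.113 in intergenic regions of 1 replicate, 3.87 ± 0.0330 in those of 3, 3.67 ± 0.0918 in genic regions of exactly 2 and 0.711 in the intergenic genome. On the recorded strand, member peaks had 24.7% to 24.9% C and 27.3% to 27.9% G. Single bases did not all follow this order. C was 24.8% to 24.9% in intergenic regions of 3 replicates. T was 20.7% to 20.9% in member peaks, below both 22.8% in intergenic regions of 1 replicate and 21.2% to 21.3% in those of 3. Tandem repeats of 1 to 6 bases made up 3.29% ± 0.324 of member peaks, 7.69% ± 0.554 of peaks in intergenic regions of 1 replicate and 1.93% ± 0.0371 in those of 3. The shift from 1 to 3 replicates was thus towards words found elsewhere in the genome and towards CpG, and away from simple tandem repeats, with the members in between in all 3 libraries.

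An L1 amplicon lay within 5 kb of 41.5%, 44.4% and 45.1% of member peaks in replicates 1, 2 and 3 (43.7% ± 1.89), against 20.9% ± 0.929 in intergenic regions of 1 replicate, 52.5% ± 0.395 in those of 3 and 16.1% ± 0.738 in genic regions of exactly 2. IAP followed another order. An IAP amplicon lay within 5 kb of 10.3% ± 0.602 of member peaks, which was above both intergenic regions of 1 replicate (6.35% ± 1.32) and those of 3 (5.41% ± 0.0189), and above genic regions of exactly 2 (3.45% ± 0.183), in 3 of 3 libraries each. Counted over regions, 713 members had L1, 169 IAP, 47 MT, 38 MuLV (a murine leukaemia virus), 21 RLTR10, 10 ETn/MusD and 9 MERVL within 5 kb, and 956 members (58.8%) had at least one of them. An amplicon marks only the part of an element that its primers span, so elements without a primer match are not counted.

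The recorded strand was set against the forward primer. Where IAP was the nearest amplicon, member peaks were on the opposite strand in 76.5%, 72.8% and 75.2% (74.9% ± 1.90), against 57.1% ± 3.99 in intergenic regions of 1 replicate and 48.1% ± 0.457 in those of 3. In genic regions of exactly 2 the share was 62.0% ± 3.17. The members concerned were 161, of which 120 were opposite. Only 60 intergenic regions of 3 replicates and 47 genic regions of exactly 2 were concerned. In family 3, 93 members were opposite to the nearest amplicon and 20 were on the same strand. Where L1 was nearest, 42.2% ± 1.45 of member peaks were opposite, against 40.8% ± 1.67 and 52.0% ± 0.651 in intergenic regions of 1 and 3 replicates. The families near L1 differed, with 191 of family 1 opposite and 109 on the same strand, 83 of family 4 on the same strand and 4 opposite, and all 27 of family 7 on the same strand. Where MuLV was nearest, 34 members were on the same strand and 4 opposite. The recorded strand did not follow that of genes. Among genic regions with genes on 1 strand only, 42.1%, 39.7% and 40.5% of those with a peak of replicate 1, 2 and 3 carried the gene's own strand. These relations are therefore between recorded strands, and sense and antisense RNA cannot be told apart.

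Of the members, 897 (55.1%) were on the plus strand and 730 on the minus strand. A region on the other strand overlapped 220 members (13.5%), and for 40 members that region was itself a member. In the libraries, this held for 13.7% ± 0.584 of member peaks, against 3.92% ± 0.274 in intergenic regions of 1 replicate and 38.5% ± 0.284 in those of 3.

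The members were not concentrated next to genes. The distance from a member's midpoint to the nearest gene had a median of 18095 bp, with quartiles of 6898 and 44494 bp, over the 1624 members on a sequence with an annotated gene. Of these, 85 lay within 1 kb of a gene, 229 from 1 to 5 kb, 15.8% from 5 to 10 kb, 692 from 10 to 50 kb, 219 from 50 to 100 kb and 143 beyond 100 kb. The share within 5 kb was 19.3% (20.3%, 19.2% and 18.8% over the members of replicates 1, 2 and 3), and 19.9% of the bases of the intergenic genome lie that close. In the libraries, the median distance of member peaks was 18117 ± 48.9 bp, farther than in intergenic regions of 1 replicate (13363 ± 495 bp) in 3 of 3 libraries. It was shorter than in intergenic regions of 3 replicates (20568 ± 475 bp), by a difference of -2451 bp in the mean, but on chromosomes 1 to 19, X and Y the difference was -571 bp (exact permutation p = 0.5) and the 3 libraries did not all lie on the same side. Taken by side and strand of the nearest gene, 422 members were downstream on the opposite strand, 385 downstream on the same, 403 upstream on the opposite and 414 upstream on the same, each 23.7% to 26.0% of the total. A base of a gene lay inside 18 members although their midpoint did not.

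Protein-coding genes were the nearest gene of 568 members (35.0%), processed pseudogenes of 457 (28.1%), lincRNAs of 198 (12.2%) and unprocessed pseudogenes of 7.57%. RefSeq models, which include genes that the GENCODE annotation used here lacks, covered the midpoint of 210 members (12.9%), among them 94 in lncRNA models and 57 in protein-coding ones. The median distance lengthens when small and pseudogene models are set aside, to 35140 bp for protein-coding and lincRNA genes alone, with 11.8% of 1748 members within 5 kb.

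Of the 5 members farthest from a gene, 3 belonged to family 1. A pair of overlapping members on opposite strands, chr6:11451110-11451259 and chr6:11451162-11451727, lay 449.1 and 448.8 kb from the end of Ndufa4, a subunit of the mitochondrial respiratory chain, and both belonged to family 1. They were followed by chr6:9694197-9694390 at 445.3 kb from Nxph1 (a neurexophilin gene), which held no CpG and 24.2% tandem repeat, by chr1:114808925-114809286 at 410.1 kb and by chr8:102135494-102135693 at 388.3 kb, which was again of family 1. The nearest L1 amplicon lay within 5 kb of all of these but the one near Nxph1.

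**Figure D3:**
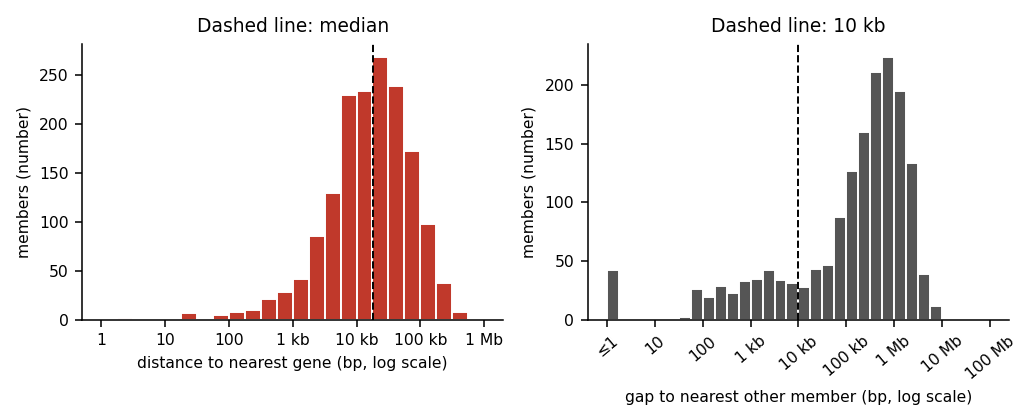
Left, members (number) by distance from their midpoint to the nearest gene (bp, log scale) with the median of 18095 bp dashed. Right, members (number) by the gap to the nearest other member (bp, log scale), with 10 kb dashed and overlapping members in the bin at 1 or less. Of the 1627 members, 316 lie to the left of the 10 kb line.

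Most members had no other member within 10 kb, but no value for evenly spread regions was taken. These shares therefore do not say whether members lie closer together than such regions would. Another member lay within 10 kb of 316 (19.4%), and the median gap to the nearest one was 328.6 kb. In the libraries, 19.8% ± 0.892 of member peaks had another member within 10 kb, against 33.8% ± 0.387 for intergenic regions of 1 replicate, 43.7% ± 0.189 for those of 3 and 16.8% ± 1.53 for genic regions of exactly 2. The difference from genic regions, 3.02 percentage points with 3 of 3 libraries higher, was 0.0199 (exact permutation p = 1) without the 65 members of the 3 densest windows and 0.947 (exact permutation p = 0.75) on chromosomes 1 to 19, X and Y, so it rested on a few dense places. Without replicate 1 it was 1.81. These shares depend on how many regions a class has, so the neighbourhood was also taken over all intergenic regions. By this measure, added after the data had been seen, 54.8% ± 1.19 of member peaks had an intergenic region within 10 kb, against 37.6% ± 0.262 and 76.1% ± 0.0373 for 1 and 3 replicates. Members thus lay between the classes here, but below both in the share with another region of their own class. Of the windows of 1 Mb, 999 held a member, 651 of these held exactly 1, and 26 held 5 or more, with 207 members among them. By chromosome, density was highest on chromosome 5 (9.87 per 10 Mb, 146 members), 6 (8.95, 131 members) and X (8.81, 144 members) and lowest on 18 (3.32, 29 members) and 11 (3.62, 43 members).

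The densest window was an unplaced scaffold, chrUn_JH584304, which held 35 members within 114.5 kb, beside 79 intergenic regions of 3 replicates and 46 of 1. Of the 35, 25 formed family 8. The widest of all members, chrUn_JH584304:112421-113583 (1163 bp, plus strand, replicates 1 and 3), lay there, 53.3 kb from AC149090.1. The middle 240 bases are shown because most members of this cluster share words with them or with each other, with CpG in capitals.
Widest member, chrUn_JH584304:112882-113121 (+): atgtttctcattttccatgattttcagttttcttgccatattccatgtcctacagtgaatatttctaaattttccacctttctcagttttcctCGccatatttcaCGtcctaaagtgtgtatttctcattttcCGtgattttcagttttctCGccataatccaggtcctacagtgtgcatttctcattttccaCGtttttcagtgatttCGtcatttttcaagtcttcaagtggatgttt
Its GC content was 35.6% and its CpG density 2.15 per 100 bases, with 96.4% masked and a median of 14 copies of its words. The third widest member, chrUn_JH584304:76324-77188, was on the minus strand and belonged to the same family. Among the 25 members of family 8, 14 shared 1 orientation. On chromosomes 1 to 19, X and Y alone, which hold 1589 members, 17.6% had another member within 10 kb.

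Another small cluster lay in an array of tRNA genes on chromosome 1 and was singled out after its values had been seen. From 171064719 to 171080156, over 15.4 kb, 7 members lay among 15 RefSeq tRNA genes (counted to 5 kb beyond either end), beside 13 intergenic regions of 3 replicates and 20 of 1 in the same 1 Mb window. The gene annotation used does not hold these tRNA genes, so those outside its other genes count as intergenic here. The gene n-TGtcc1, at 171064699 to 171064770, lies inside Fcgr3, whose span reaches 171064935. The member over it counts as intergenic because its midpoint lies 3 bp beyond Fcgr3. tRNAs are among the RNAs best known to carry m5C. The 7 members were 150 to 512 bp wide, with a mean GC content of 65.1%, 7.96 CpG per 100 bases, 8.84% masked bases and a median of 3 copies. Of these, 3 overlapped a tRNA gene (n-TGtcc1, n-TLcag7 and n-TGtcc4) and 6 lay within 1 kb of one. The member over n-TGtcc4 contains all 72 bases of that gene, which runs on the other strand, and is shown with the tRNA gene in capitals.
Member over n-TGtcc4, chr1:171079926-171080156 (+): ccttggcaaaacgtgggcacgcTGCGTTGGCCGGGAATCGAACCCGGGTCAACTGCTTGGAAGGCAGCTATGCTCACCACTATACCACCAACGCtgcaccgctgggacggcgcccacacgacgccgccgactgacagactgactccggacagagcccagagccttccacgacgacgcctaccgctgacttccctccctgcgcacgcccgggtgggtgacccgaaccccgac
No other member lay within 1 kb of any of the 403 RefSeq tRNA genes examined. The share of regions that overlapped a tRNA gene was 0.184% for the members, 0.0368% for intergenic regions of 1 replicate and 0.823% for those of 3, which are 3 of 1627, 5 of 13583 and 9 of 1093 regions.

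The next densest windows were on chromosome 8. The one at 20 Mb held 17 members over 818.4 kb, 53.5% masked and with a median of 5 copies, and the one at 55 Mb held 13 over 451.0 kb, 26.8% masked and with a median of 13 copies, so these clusters were less repeat-masked than the members as a whole. The widest member of the first, chr8:20599393-20599703, lay 2.507 kb from the pseudogene Gm21112 and had 1.29 CpG per 100 bases and a median of 4 copies. That of the second, chr8:55350354-55350720, was 12.8% masked and had 60.8% GC and a median of 12 copies. Both are copied a few times in the genome while most of their bases are not marked as repeats.

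The genes close to members were examined for m5C-IP against Input in counts per gene. This measure was not used by the rule, but it comes from the same IP libraries as the peaks. As 18 members hold a base of a gene, their own peaks can add to the IP count of that gene. The filter on low counts can also be passed through IP counts alone. The values of neighbours are therefore a description. A member lay within 10 kb of 752 annotated genes, of which 734 had a row in the count tables, and 307 of these were tested by edgeR after the filter on low counts, while 198 had no count in any of the 6 libraries. Of all 20244 genes tested, 16590 passed an adjusted p of 0.05 (82%), 8078 higher in IP (39.9%) and 8512 lower (42%). With so many calls a single call says little. Of the 307 neighbours, 254 passed (82.7%), 138 higher (45.0%) and 116 lower (37.8%), so that the share called was close to that of all genes. Of the 147 tested genes with a member within 5 kb, 78 were higher (53.1%) and 45 lower (30.6%).

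The median log2 IP/Input was 0.26 over the neighbours within 10 kb and 0.85 over those within 5 kb, against -0.17 over all genes, which puts them 0.43 and 1.02 above all genes. For those within 10 kb this excess was 0.17 with no filter on low counts, 0.24 with DESeq2 and 0.29 to 0.60 with 1 library left out. For those within 5 kb these alternatives were not taken. The median over all genes moved to 0.83 with library size scaling alone, where 67.9% of calls were higher in place of 48.7%, and 76.3% of the neighbours' calls in place of 54.3%. Leaving out 1 Input library reduced the genes tested to between 12280 and 12292, because the filter follows the median library size, and the neighbours called to 89 higher and 52 lower without Input replicate 1, 89 and 52 without replicate 2, and 90 and 50 without replicate 3.

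**Figure D4:**
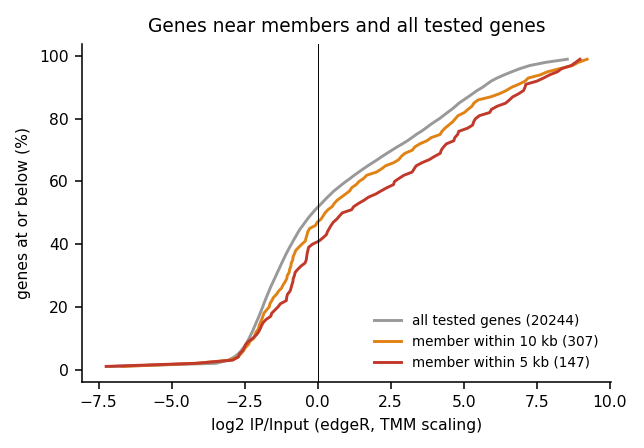
Cumulative share of genes (%) by log2 IP/Input from edgeR with TMM scaling, for all 20244 tested genes (grey), the 307 with a member within 10 kb (orange) and the 147 with a member within 5 kb (red). The red line reaches 50% at 0.85 and the grey line at -0.17.

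The genes with most members within 10 kb were mostly small or little expressed. Gm27552, Mir6546 and Gm27844, annotated as miRNA genes in the tRNA array on chromosome 1, had 7, 6 and 5 members and at most 2 counts in any library. Fcgr3, a receptor for the constant part of IgG whose 5′ end reaches into the array, had 6 members, with the midpoint of the nearest 3 bp beyond its 5′ boundary. Its level was 10.6, 11.9 and 10.1 CPM in IP, from 5, 7 and 6 counts, and 0.758, 0.514 and 0.460 CPM in Input. All IP values were above all Input values, and log2 IP/Input was 3.25 (SE 0.54, adjusted p = 3.65e-05, edgeR). Fcgr3 passed the filter on low counts only because of its IP counts, so a high value in IP was a condition of its being tested. Its nearest member also overlaps the gene, so reads of that peak may be among its IP counts, which was not tested. The values of Fcgr3 are therefore a description. AC149090.1 on the unplaced scaffold had 6 members and was not used in the count test. The pseudogenes Gm21112, Gm9816, Gm35702 and Gm13526 and the T cell receptor segment Trbv21 had 3 or 4 members and were too low to test.

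Uncx, a homeobox transcription factor gene of somite and neuron development, had 3 members within 10 kb, the nearest at 74 bp. It had 69.7, 47.6 and 42.2 CPM in IP and 0.0689, 0.0605 and 0.0288 CPM in Input, so the groups did not overlap. The Input rested on 5 counts over 3 libraries, and the ratio of pooled CPM was 1007 (95% exact interval 415 to 3179, counting error only). Rbm12b1, an RNA-binding protein gene with 3 members, had 0, 6.80 and 0 CPM in IP and 4.86, 5.21 and 5.87 CPM in Input. The IP and Input values overlapped. Its log2 IP/Input was -2.11 (SE 0.72, adjusted p = 0.0135, edgeR), and with library size scaling the adjusted p was 0.228, without IP replicate 1 it was 0.0526 and without IP replicate 3 it was 0.0823. All 4 IP counts were in replicate 2, and without it the log2 value was -9.72 (adjusted p = 0.00104, edgeR), which is no bound, since no IP count remained.

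Among genes within 5 kb of a member with a mean of at least 5 CPM, 113 were tested and 100 passed, and of all genes at that mean level 86.5% passed. The largest values, beside Uncx, were those of AW822073, G530012D18Rik, Duxf3, Uqcrh-ps1 and Kcna5. These 6 genes had at most 5 counts in any Input library and reached the level required through IP alone, so a high value in IP was a condition of their being named, and their values are a description. Duxf3, a double homeobox transcription factor of the early embryo that drives MERVL and cleavage-stage genes, had 76.0, 95.2 and 99.6 CPM in IP and 0.172, 0.121 and 0.0288 CPM in Input, and its log2 IP/Input was 8.69 (SE 0.48, adjusted p = 1.17e-10, edgeR). AW822073, which lies beside it on chromosome 10, had 59.1, 47.6 and 45.6 CPM in IP and 1, 0 and 3 counts in Input. Duxf3 belongs to a family of near-identical copies, so its counts are uncertain. The other 3 had 1 count in Input in all, and their ratios of pooled CPM were 1580 (95% exact interval 260.5 to 64705) for G530012D18Rik, 1346 (218.6 to 55458) for the pseudogene Uqcrh-ps1 and 1054 (166.4 to 43898) for Kcna5, a voltage-gated potassium channel. 

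The smallest values were those of Gm10479, Mgat2, G3bp1, Lsm8, Gm17067 and Wsb1. G3bp1, an RNA-binding protein of stress granules, had 154, 170 and 105 CPM in IP and 486, 478 and 481 CPM in Input, and its log2 IP/Input was -2.73 (SE 0.11, adjusted p = 2.22e-12, edgeR). Wsb1, an adaptor of a ubiquitin ligase, stood at 95.6 to 97.6 CPM in the Input libraries and at 39.1 CPM or less in the IP libraries, with a log2 IP/Input of -2.52. The lincRNA Gm10479 had only 2, 1 and 2 counts in IP, while its Input level was 23.8 ± 1.11 CPM (SD, n = 3), with a log2 IP/Input of -3.94 (SE 0.43). Lsm8, a subunit of the ring that binds U6 snRNA, had -2.71, Mgat2, an enzyme of N-glycan synthesis, -3.02 from 0, 1 and 4 IP counts (-4.66 without IP replicate 3), and Gm17067 -2.69, and IP and Input did not overlap in any of them. The genes named here and before were picked as the largest and smallest called values, so both directions were fixed by the choice.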

How the data were processed

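m5C-IP and Input libraries of caRNA from wild-type mESC were analysed (n = 3 each, groups and replicate numbers from the titles, which the antibody label does not follow). Per the submitters' processing notes, the authors used Trimmomatic 0.39, HISAT2 2.1.0, SAMtools 1.16.1 and MACS2 on mm10; they deposited peak positions with a strand per IP library, from fragments extended to 150 bp, and raw read counts per gene. Whether counting used the strand is not given in the sources used here.

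Intergenic was judged with GENCODE M21 (GRCm38), another release than the study's. Sequence, lower-case (repeat-masked) bases and tRNA genes came from RefSeq GRCm38.p6; 3 members on scaffolds that could not be matched have no sequence. Copies of 31-base words were counted on both strands of the assembly. edgeR 4.0.16 (R 4.3.3) compared IP with Input in gene counts of the 6 mESC libraries, using TMM scaling, filterByExpr and the quasi-likelihood test, with Benjamini-Hochberg adjustment at 0.05. Identifiers matched for 99.9%. HTSeq summary lines, 71.4% to 71.7% of records in IP and 19.0% to 19.3% in Input, stayed out. A floor of 3 counts was 5.06 to 6.34 CPM in IP and 0.0863 to 0.103 CPM in Input.

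Genes named were the 12 with most members within 10 kb and, within 5 kb at a mean of 5 CPM or more, the 6 largest and 6 smallest called log2 values; regions named were the 5 widest, the widest of the 5 largest families and of the 3 densest 1 Mb windows, and the 5 farthest from a gene. The members and lists were chosen with earlier results of these data known. On simulated mESC counts over 16531 genes, 200 of 200 genes changed by 2 on the log2 scale were recovered, and 5.21% of the 211 calls were false. The changed genes were drawn from those well counted in IP before the change, so recovery of genes with low IP counts was not tested. The simulation changed only 200 genes, whereas 16590 of 20244 were called in the data. The share of false calls therefore need not hold for the data. Alternatives were DESeq2 1.42.0, other scalings, filters, overlaps and gene sets, a replicate block and each library left out.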

Additional observations from a re-analysis of the deposited data

How the results depend on the processing

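The number of members stayed between 1567 and 1748 with peaks joined only at a larger overlap (0.5 of the shorter peak), with strand ignored, with no base in a gene, on chromosomes 1 to 19, X and Y, or with protein-coding and lincRNA genes only. Values over members that moved by more than the SD over replicates were as follows. With the larger overlap the median width was 155 bp. Without strand it was 158 bp, with 20.6% within 5 kb of a gene, a median distance of 17281 bp, 15.7% with a member within 10 kb, 52.0% GC and 3.33 CpG per 100 bases. With no base in a gene, 18.4% were within 5 kb and the median distance was 18271.5 bp. On chromosomes 1 to 19, X and Y, it was 17886 bp, with 17.6% clustered and 52.6% GC. With protein-coding and lincRNA genes only, it was 35140 bp, with 11.8% within 5 kb and 76.4% masked. Without 1 replicate, regions held peaks of both others and so included those of 3 replicates: width was 170 to 173 bp, 16.2% to 16.7% were within 5 kb, distance was 19625 to 20563 bp, 37.9% to 40.1% were clustered, GC was 52.6% to 53.1%, 83.4% to 84.0% was masked, CpG was 3.61 to 3.76 per 100 bases and the number 1513 to 1867.

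With 3 libraries no class comparison could pass the test. Of 120 alternative values none changed sign, but clustering against genic regions fell from 3.02 percentage points to 0.947 on chromosomes 1 to 19, X and Y and to 0.0199 without the densest windows, and the distance difference from regions of 3 replicates went from -2451 to -571 bp on those chromosomes. For counts of genes, DESeq2 called 13147 higher in IP and no filter 12677, and 218 and 208 neighbours higher, while library size scaling called 4738 lower and 54 neighbours lower. Leaving out 1 library gave 9236 to 16165 calls, 4572 to 7875 higher, 4664 to 8290 lower, and 89 to 131 neighbours higher and 50 to 109 lower, the low ends where an Input library was left out. Same-numbered IP and Input libraries deviated together only weakly (correlations 0.0280, 0.0210 and 0.0212), and those with unlike numbers had correlations from -0.0240 to 0.00410. With so few IP counts, values this small cannot tell whether the numbers pair the libraries. With the replicate block 15434 genes were called, 131 neighbours higher and 101 lower. Of 133 values for named genes, 130 kept direction and side of the threshold, the others being those of Rbm12b1 given with it. IP depth limits low genes, as 3 counts stand for 5.06 CPM or more.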
